A study of Saccharomyces cerevisiae with 12 samples.

Results

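The TIR and DAN genes of *Saccharomyces cerevisiae* encode mannoproteins of the cell wall, and this account follows 9 of them, *TIP1*, *TIR1* to *TIR4* and *DAN1* to *DAN4*, out of 5896 genes measured. The genes were chosen by name, with the opposite effects of aspirin on several of them in 2 strains already known from these data. Gene symbols matched 7 of the genes. *DAN2* and *DAN3* are listed on the array under the symbols *PAU23* (YLR037C) and *PAU24* (YBR301W), and were found through the RefSeq synonyms of those loci. The 9 genes have 10 of the 5716 tested probe sets, since *DAN2* has 2, and no filter on low values was applied, so all 10 entered the fit.

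RNA was taken from EG103, a wild-type MATα GAL+ strain with the auxotrophic alleles ura3-52, trp1-289a, his3Δ1 and leu2-3 112, and from EG110, the same strain with *SOD2*, the gene of the mitochondrial manganese superoxide dismutase, replaced by *TRP1*. Both strains therefore carry the auxotrophic alleles of the parent, except that EG110 received *TRP1*. Cells were grown aerobically with shaking for 48 h in ethanol medium, either untreated or with 15 mM aspirin (acetylsalicylic acid, ASA) in medium whose pH had been adjusted with Trizma base. Each of the 4 groups had 3 biological replicates, each hybridized to its own Affymetrix Yeast Genome 2.0 array. Each genotype was a single strain, so the deletion, the *TRP1* marker and any other difference between the strains cannot be told apart.

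These proteins are anchored to the wall through a glycosylphosphatidylinositol (GPI) tail and are rich in serine and threonine that carry mannose. *TIP1* is known as a gene induced by cold shock, and the TIR and DAN genes as genes induced by cold or by lack of oxygen, when yeast exchanges the mannoproteins Cwp1 and Cwp2 of the aerobic wall for those of the TIR and DAN group. In well-aerated cells the DAN and TIR genes are held down by repressors that include Rox1 and Mot3, and the sterol-responsive factor Upc2 activates them when oxygen and sterol run short.

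Values are log2 expression levels made by the robust multi-array average method, and levels of different probe sets are not set against each other, because probes differ in how strongly they bind. Array medians over the tested probe sets ranged from 11.15 to 11.18 in EG110 and from 11.36 to 11.39 in EG103, a shift that touches every comparison between the strains. All 10 probe sets lay above 6.31 on every array, whereas the 95th percentile of the 4999 probe sets that list no *S. cerevisiae* gene was 5.26 to 5.50. *SOD2* averaged 4.71 ± 0.26 (SD, n = 3) and 4.77 ± 0.04 in EG110 cells without and with aspirin, and 14.30 ± 0.09 and 14.28 ± 0.08 in EG103 cells, as the labels state. The 3 markers of MATα cells, *MF(ALPHA)1*, *MF(ALPHA)2* and *STE3*, were present in all groups. Averaged over both media they were 0.80, 1.10 and 1.18 higher in EG110 on the log2 scale. *MF(ALPHA)2* was called higher with aspirin in EG110 (0.77, adjusted P = 2.24e-04 by limma) and in EG103 (0.89, adjusted P = 5.93e-04 by limma). The summed level of the 3 markers of MATa cells (*MFA1*, *MFA2*, *STE2*), none of them at background, ran from 10.03 to 10.19 in untreated EG110 cells, from 9.64 to 9.81 in EG110 with aspirin, from 10.47 to 10.68 in untreated EG103 and from 10.68 to 10.80 in EG103 with aspirin, as log2 of the sum. Of these 3, *MFA2* was called lower with aspirin in EG110 (-0.89, adjusted P = 1.63e-05 by limma) and none was called in EG103. In EG110 *MFA1* had -0.54 and *STE2* 0.25, neither called. The part of either set of markers in the results below was not tested.

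*TIP1*, *TIR1* and *TIR3* were lower with aspirin in EG110 cells and higher with aspirin in EG103 cells, with no overlap between treated and untreated arrays in either strain. RNA came from whole cultures, so fewer expressing cells and less RNA per cell cannot be told apart. Because the genes were chosen with this pattern known, their aspirin effects are given as a description, with limma's standard error and without a P-value.

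*TIP1* (YBR067C), the founding member of the family, read 12.35, 13.23 and 12.07 on arrays 1, 2 and 3 of untreated EG110 cells and 11.35, 11.54 and 11.16 with aspirin. In EG103 cells it read 11.74, 11.32 and 11.87 without aspirin and 12.67, 12.70 and 13.10 with it. All 3 treated EG110 arrays lay below the untreated ones and all 3 treated EG103 arrays above, and the untreated EG110 replicates were the most spread of any group (SD 0.60, n = 3). The log2 difference was -1.20 (standard error 0.25) in EG110, which is 2.29-fold lower, and 1.18 (standard error 0.25) in EG103, which is 2.27-fold higher. Ordered by group mean, EG103 with aspirin was highest, followed by untreated EG110, untreated EG103 and EG110 with aspirin, and the arrays of the first pair and of the last pair in this order overlapped.

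*TIR1* (YER011W), a cold-shock gene also induced by anaerobic growth, read 12.92, 12.50 and 12.79 in untreated EG110 cells and 11.46, 11.47 and 11.06 with aspirin. In EG103 cells its values were 10.30, 10.14 and 10.66 without aspirin and 11.21, 11.22 and 11.36 with it. Untreated EG110 stood above, and untreated EG103 below, the arrays of both treated groups, which overlapped each other. The log2 difference was -1.41 (standard error 0.15) in EG110, 2.65-fold lower, and 0.90 (standard error 0.15) in EG103, 1.86-fold higher. The strains differed 5.18-fold without aspirin (log2 difference 2.37, standard error 0.15) and by 0.07 (standard error 0.15) with aspirin.

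*TIR3* (YIL011W), needed for anaerobic growth, read 10.99, 10.92 and 10.83 in untreated EG110 cells and 10.04, 9.97 and 9.92 with aspirin. In EG103 cells its values were 10.63, 10.47 and 10.91 without aspirin and 11.44, 11.28 and 11.83 with it. The untreated arrays of the strains overlapped, and the treated ones lay on opposite sides of them. The log2 difference was -0.94 (standard error 0.13) in EG110 and 0.85 (standard error 0.13) in EG103. With aspirin the strains differed by -1.54 (standard error 0.13), EG110 being 2.91-fold lower, against 0.24 (standard error 0.13) without it.

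**Figure D1:**
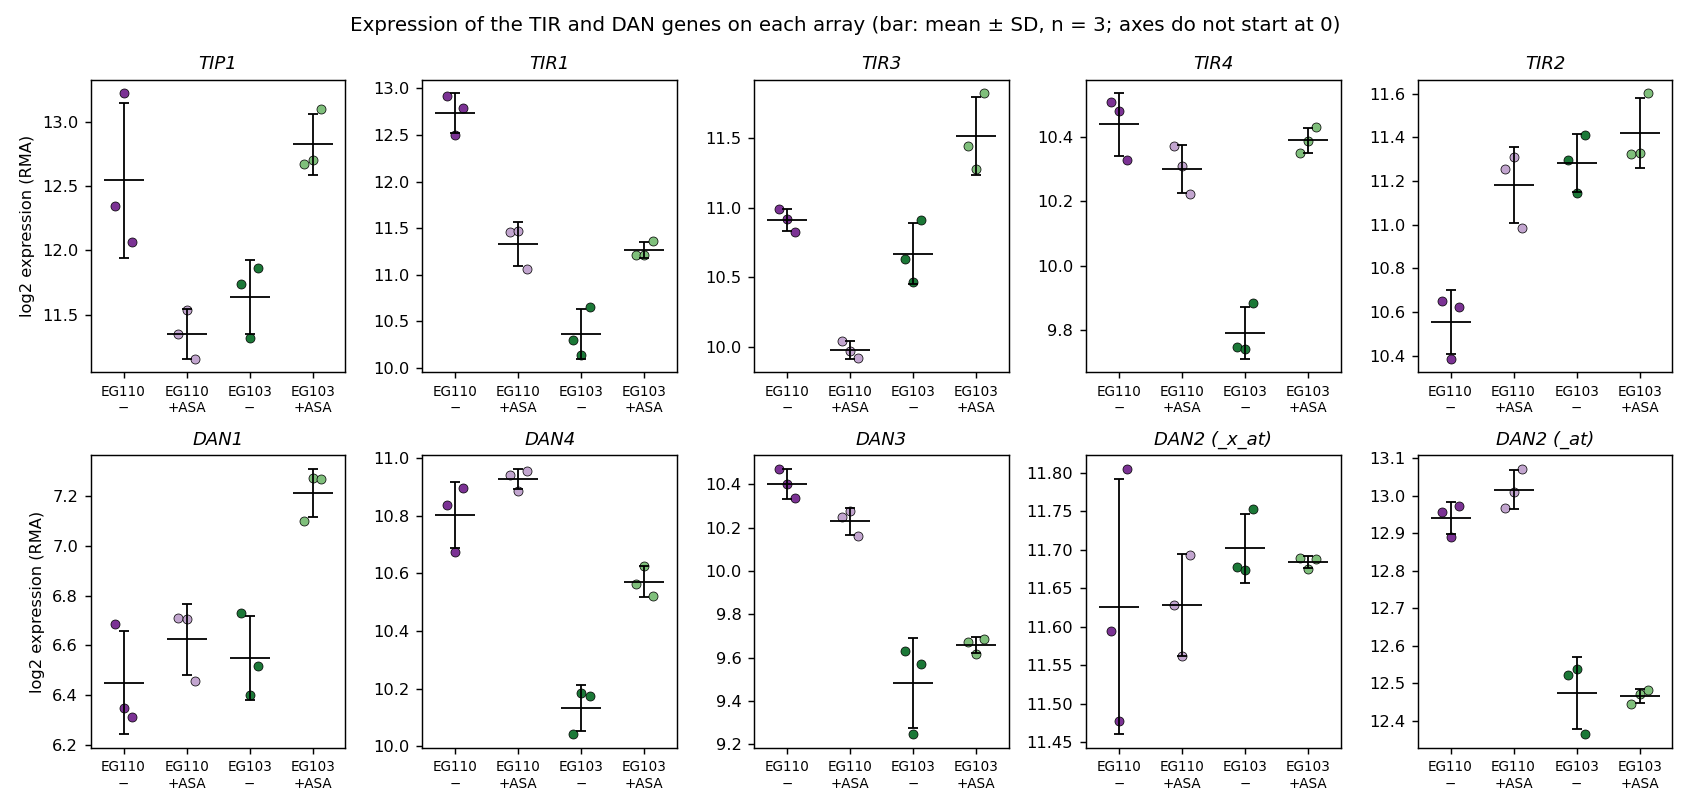
Log2 expression (vertical axes, which do not start at 0) of each TIR and DAN probe set on the 12 arrays, by strain and medium (− untreated, +ASA with aspirin). Points are arrays, and bars are the mean ± SD of 3 arrays. In the panels of *TIP1*, *TIR1* and *TIR3* the treated arrays lie below the untreated arrays in EG110 and above them in EG103, and in those of *DAN3*, *DAN4* and the *DAN2* (_at) probe set all EG110 arrays lie above all EG103 arrays.

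*TIR4* and *TIR2*, both wall mannoproteins of the same group, are neighbouring genes with no other protein-coding gene between them, and their aspirin differences were not alike. *TIR4* (YOR009W) read 10.51, 10.48 and 10.33 in untreated EG110 and 10.37, 10.31 and 10.22 with aspirin, and these arrays overlapped. In EG103 it read 9.75, 9.74 and 9.88 without aspirin and 10.35, 10.39 and 10.43 with it, with no overlap. Its log2 difference was -0.14 (standard error 0.064) in EG110 and 0.60 (standard error 0.064) in EG103. Untreated EG103 was the group that stood apart, below all others. The EG103 value lay at the 1.5-fold threshold used for calls and fell below it without EG103 aspirin array 3 (0.58), EG103 untreated array 1 (0.58) or EG103 untreated array 2 (0.57), and under quantile normalization (0.54).

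*TIR2* (YOR010C) read 10.65, 10.39 and 10.62 in untreated EG110 and 11.26, 11.31 and 10.99 with aspirin, with no overlap. In EG103 it read 11.30, 11.14 and 11.41 without aspirin and 11.32, 11.33 and 11.60 with it, and these arrays overlapped. It was the only one of the 9 genes whose log2 difference in EG110 was positive and passed the call (0.63, standard error 0.11), against 0.14 (standard error 0.11) in EG103. Here untreated EG110 was the group that stood apart, below all others. Without EG110 aspirin array 2 the difference was 0.57 and without EG110 untreated array 2 it was 0.55, both under the 1.5-fold threshold.

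*DAN1* (YJR150C), the gene after which the delayed-anaerobic group is named, read 6.69, 6.35 and 6.31 in untreated EG110 and 6.71, 6.70 and 6.46 with aspirin. In EG103 it read 6.73, 6.40 and 6.52 without aspirin and 7.10, 7.27 and 7.27 with it. Treated EG103 lay above all other arrays, and the other 3 groups overlapped. The log2 difference was 0.66 (standard error 0.11) in EG103 and 0.18 (standard error 0.11) in EG110. This gene came nearest to background, and 0.16% of the probe sets that list no gene of this species exceeded its mean.

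*DAN4* (YJR151C) adjoins *DAN1*, with no other protein-coding gene between them. It read 10.84, 10.68 and 10.89 in untreated EG110 and 10.94, 10.89 and 10.95 with aspirin. In EG103 it read 10.04, 10.18 and 10.17 without aspirin and 10.56, 10.63 and 10.52 with it. All EG110 arrays exceeded all EG103 arrays, and within EG103 the treated arrays exceeded the untreated ones. The log2 difference with aspirin was 0.44 (standard error 0.064) in EG103, which is 1.35-fold, and 0.12 (standard error 0.064) in EG110.

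*DAN3* and *DAN2* belong by sequence to the seripauperins, a large family of near-identical short mannoprotein genes, and the *DAN3* probe set and 1 of the 2 *DAN2* probe sets carry the suffix with which the manufacturer marks probes that may bind related transcripts. Their values are therefore uncertain. *DAN3* read 10.34 to 10.47 in untreated EG110, 10.16 to 10.28 in EG110 with aspirin, 9.25 to 9.63 in untreated EG103 and 9.62 to 9.69 in EG103 with aspirin. Its log2 differences with aspirin were -0.17 (standard error 0.086) in EG110, where the groups did not overlap, and 0.18 (standard error 0.086) in EG103, where they did.

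The unmarked *DAN2* probe set, called *DAN2* (_at) here, read 12.89 to 13.07 in EG110 and 12.36 to 12.54 in EG103, with log2 differences with aspirin of 0.08 (standard error 0.055) and -0.01 (standard error 0.055). The marked *DAN2* (_x_at) probe set read 11.48 to 11.81 over all 12 arrays, with log2 differences of 0.00 and -0.02 (standard error 0.073 each). The probe sets of this gene thus disagreed on the strains, and the second is the marked probe set.

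**Figure D2:**
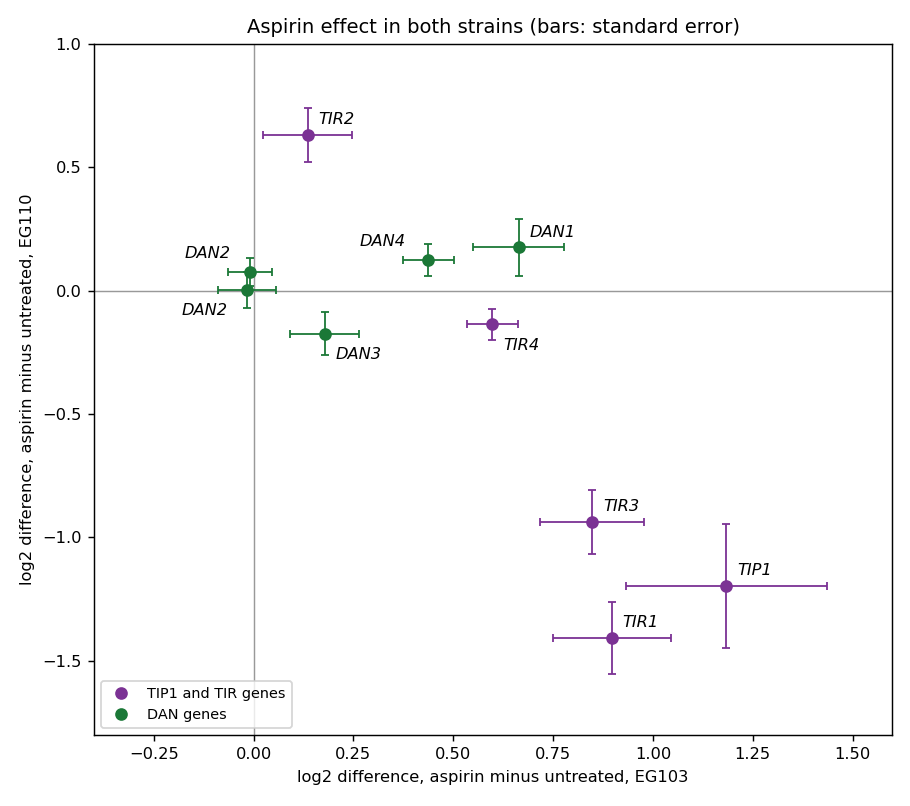
Log2 difference of aspirin-treated minus untreated cells in EG103 (horizontal axis) and EG110 (vertical axis) for the 10 probe sets, with limma's standard errors. *TIP1*, *TIR1* and *TIR3* lie at the lower right, between -1.41 and -0.94 in EG110 and between 0.85 and 1.18 in EG103, while *TIR2* lies at the upper left at 0.63 and 0.14.

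Calls required both a Benjamini-Hochberg-adjusted P below 0.05 by limma and a 1.5-fold change. In EG110 cells aspirin called 4 of the 10 probe sets, *TIR2* higher and *TIP1*, *TIR1* and *TIR3* lower, against 12% of all tested probe sets, 5.9% higher and 6.09% lower. Treated and untreated EG110 arrays did not overlap for 5 of the 10, against 62.0% of all tested. In EG103 cells it called 5, all of them higher (*TIP1*, *TIR1*, *TIR3*, *TIR4* and *DAN1*), against 2.61% of all tested and 1.75% in the higher direction, and the EG103 arrays did not overlap for 6, against 39.0%. Between the aspirin effects of the strains, 4 were called, all lower in EG110 (*TIP1*, *TIR1*, *TIR3* and *TIR4*), against 11.6% of all tested, 6.37% in the lower direction. Since these contrasts led to the choice of the genes, nothing is read from the counts. Without replicate 1 of every group the count in EG103 was 2, *TIP1*, *TIR1* and *TIR3* then missing the adjusted P at log2 differences of 1.31, 0.89 and 0.87, and without replicate 2 it was 3, as *DAN1* (0.56) and *TIR4* (0.57) fell below the threshold of fold change.

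The effect of aspirin in EG110 minus that in EG103 was -2.38 (standard error 0.36) for *TIP1*, -2.31 (standard error 0.21) for *TIR1*, -1.79 (standard error 0.19) for *TIR3* and -0.73 (standard error 0.090) for *TIR4*, on the log2 scale. It was -0.49 for *DAN1*, -0.35 for *DAN3*, -0.31 for *DAN4*, 0.50 for *TIR2* and 0.08 and 0.02 for *DAN2*. The median over the 10 probe sets was -0.07 in EG110, 0.52 in EG103 and -0.42 for the difference, beside 0.02, 0.01 and 0.00 over all tested probe sets. Of all tested probe sets 12, or 0.21%, were called lower in EG110 and higher in EG103, *TIP1*, *TIR1* and *TIR3* among them, and 8, or 0.14%, the opposite way. Arrays did not overlap in either strain, in the directions of *TIP1*, *TIR1* and *TIR3*, for 3.46% of all tested probe sets, and in the reverse directions for 3.24%.

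The genes varied in several patterns over the 12 arrays, which share strain, medium and replicate number. *TIP1* followed *TIR3* (Pearson r = 0.86) more closely than *TIR1* (r = 0.44). *TIR1* followed *TIR4* (r = 0.80) and *DAN3* (r = 0.84), and ran opposite to *TIR2* (r = -0.73). *DAN3*, *DAN4* and the *DAN2* (_at) probe set, the probe sets with higher EG110 arrays throughout, had r of 0.82 to 0.89 with each other. That shared strain difference by itself favours a high r. They did not stand apart from the rest, as *TIR4* also followed *DAN4* (r = 0.80). The 2 probe sets of *DAN2* had an r of -0.36 with each other. Within EG103, array 3 was the highest of its group both with and without aspirin for *TIP1* and all 4 TIR genes.

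The gene order around *TIR4* and *TIR2* was followed after the values had been seen. *YOR008C-A*, on the other side of *TIR4*, had log2 differences with aspirin of -0.72 in EG110 and 0.70 in EG103, both called. *AUS1*, which encodes a sterol importer and lies on the other side of *TIR2*, had -0.45 and 0.40, neither called. Along this run of 4 genes, *TIR2* was therefore the only gene with a positive difference in EG110. Beside *TIP1*, *NRG2* (-0.78) and the amino acid permease gene *BAP2* (-0.998) were both called lower in EG110, with 0.40 and -0.07 in EG103, neither called. Beside *DAN4*, *YJR151W-A* was called lower in EG110 (-1.31) with 0.20 in EG103, and beside *DAN3*, *MAL32*, whose probe set may also read related genes, was called higher in EG110 (0.98) with -0.03 in EG103. The neighbours of *TIR1* (*YER010C* at -0.22 and *PRE1* at -0.05 in EG110), *DOT5* beside *TIR3* (-0.56), *YJR149W* beside *DAN1* (-0.32), *COS2* on the other side of *DAN3* (0.07) and those of *DAN2* (*YLR036C* at 0.41 and *COX12* at 0.05) were called with aspirin in neither strain. For the effect in EG110 minus that in EG103, *YJR151W-A* (-1.51), *YOR008C-A* (-1.41), *NRG2* (-1.18), *BAP2* (-0.93), *AUS1* (-0.85) and *DOT5* (-0.73) were called lower. *MAL32* (1.01) was called higher. Of all tested probe sets 11.6% were called for it.

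The difference between the strains, averaged over both media, was not among the contrasts that led to the choice of the genes. It comes from the same 12 arrays, of which earlier results were known, so its adjusted P-values are not independent evidence. In it 3 of the 10 probe sets were called, against 22.7% of all tested probe sets, 6.28% higher in EG110 and 16.4% lower. *TIR1* was 2.33-fold higher in EG110 (log2 difference 1.22, standard error 0.10, adjusted P = 3.68e-07 by limma). The *DAN3* probe set, which may also bind related transcripts, was 1.68-fold higher (0.75, standard error 0.061, adjusted P = 2.48e-07 by limma). *TIR3* was 1.57-fold lower in EG110 (-0.65, standard error 0.093, adjusted P = 3.57e-05 by limma). For *TIR1* and *TIR3* the average combines unlike media, the first differing in untreated cells and the second in treated cells. The *TIR3* call was lost without EG103 aspirin array 3 (-0.57).

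A further 5 probe sets passed the adjusted P below the 1.5-fold threshold. Without a fold threshold 8 of the TIR and DAN probe sets passed, against 79.4% of all tested probe sets. Passing the adjusted P in this comparison therefore did not set these genes apart. *DAN4* was 0.51 higher in EG110 on the log2 scale (standard error 0.045, adjusted P = 4.89e-07 by limma), the *DAN2* (_at) probe set was 0.51 higher (standard error 0.039, adjusted P = 1.42e-07 by limma) and *TIR4* was 0.28 higher (standard error 0.045, adjusted P = 1.00e-04 by limma). *TIR2* had -0.48 (adjusted P = 1.07e-04 by limma) and *DAN1* -0.35 (adjusted P = 0.00175 by limma). *TIP1*, at -0.28 (adjusted P = 0.159 by limma), and the *DAN2* (_x_at) probe set, at -0.07 (adjusted P = 0.256 by limma), did not pass. Without replicate 2 of every group *TIP1* was called, at -0.61 (adjusted P = 0.00109 by limma).

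The median strain difference over all tested probe sets was -0.18, and 359 probe sets were called higher and 936 lower in EG110. After quantile normalization over the 12 arrays the split was 553 higher and 507 lower, and after centring each array on its median 647 and 455. Under both scalings the calls among the 10 probe sets were 4, all higher in EG110, namely *TIR1* (1.39 and 1.43), *DAN3* (0.89 and 0.96), *DAN4* (0.68 and 0.72) and the *DAN2* (_at) probe set (0.69 and 0.72). *TIR3* stayed below 0 (-0.48 and -0.44) without a call, and the *DAN2* (_x_at) probe set turned to 0.16 and 0.14. All EG110 arrays lay above all EG103 arrays for *DAN3*, *DAN4* and the *DAN2* (_at) probe set, which was the case for 10.9% of all tested probe sets.

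**Figure D3:**
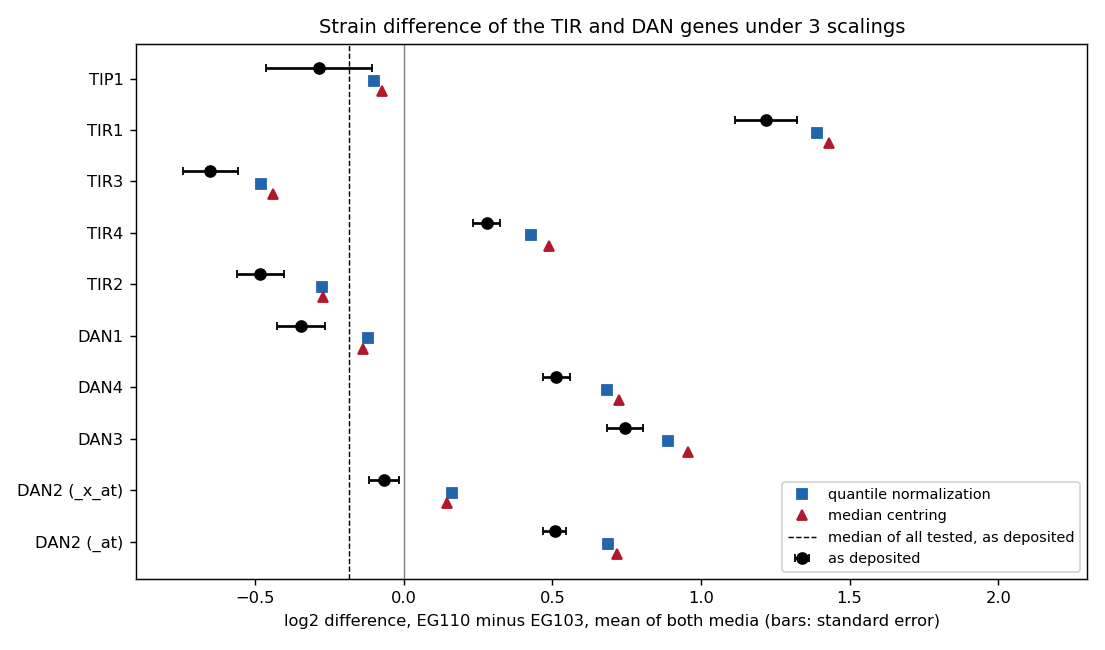
Log2 difference of EG110 minus EG103, averaged over both media, for the 10 probe sets as deposited (circles, with limma's standard errors), after quantile normalization (squares) and after median centring (triangles). The dashed line is the median of all tested probe sets as deposited, -0.18. *TIR1* (1.22, 1.39 and 1.43) and *DAN3* (0.75, 0.89 and 0.96) exceed 1.5-fold in every scaling, and *TIR3* is 1.57-fold lower as deposited and less than 1.5-fold lower otherwise.

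Wall genes outside the group were read from a list of 12 genes. This list and the 3 that follow were put together with earlier results of these arrays known, so their adjusted P-values, which cover all tested probe sets, are not independent evidence. In EG110, *PST1*, which encodes a GPI protein induced by wall damage, rose by 1.04 on the log2 scale (adjusted P = 7.02e-07 by limma, standard error 0.075), and *CRH1*, which encodes a chitin transglycosylase, rose by 1.08 (standard error 0.12, adjusted P = 1.39e-05 by limma). *CWP1*, a mannoprotein of the aerobic wall, fell by 0.59 (standard error 0.11, adjusted P = 7.63e-04 by limma), just past the 1.5-fold threshold, and the call was lost without EG110 aspirin array 1 (-0.58), EG110 untreated array 1 (-0.49) or EG110 untreated array 2 (-0.56), and under quantile normalization (-0.51). *CWP2* had 0.01 in EG110 and 0.00 in EG103. In EG110 2 of the 12 were thus called higher and 1 lower, against 5.9% and 6.09% of all tested probe sets. None of the 12 was called in EG103, against 2.61% of all tested, and *CWP1* had 0.21 there (adjusted P = 0.191 by limma). The effect in EG110 minus that in EG103 was called for *PST1* (1.28), *CRH1* (1.28) and *GAS1*, a glucan-elongating enzyme (0.75, adjusted P = 4.30e-04 by limma), all higher, and for *CWP1* (-0.79, adjusted P = 0.00211 by limma), which was lost without replicate 2 of every group (-0.74, adjusted P = 0.0604). Of all tested probe sets 11.6% were called for this difference of effects. Averaged over media, *PST1* was higher in EG110 (1.79) and *UTR2*, a further chitin transglycosylase gene, lower (-2.19). Of all tested probe sets 6.28% were called higher and 16.4% lower in that comparison.

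The seripauperin list held 22 genes on 13 probe sets, several of which read up to 8 near-identical genes at once, so that single genes cannot be told apart. None was called with aspirin in either strain, against 12% of all tested probe sets in EG110 and 2.61% in EG103. The medians were -0.04 in EG110 and 0.24 in EG103, beside 0.02 and 0.01 over all tested probe sets. The effect in EG110 minus that in EG103 was called lower for 2 probe sets, against 6.37% of all tested. They were that of *PAU3* and 5 other genes (-0.63, adjusted P = 0.00668 by limma) and that of *PAU21* and 1 other gene (-0.60, adjusted P = 0.0247 by limma). The first call was lost without EG110 aspirin array 2 (-0.56), EG110 untreated array 3 (-0.58), EG103 aspirin array 1 (-0.57) or EG103 untreated array 2 (-0.57). The second was lost without EG110 aspirin array 2 (-0.54), EG110 untreated array 1 (-0.58) or 3 (-0.57), EG103 aspirin array 2 (-0.44) or EG103 untreated array 3 (-0.53). The same 2 probe sets were higher in EG110 averaged over media, by 1.91 and 2.55, and *PAU17* was lower by one of its 2 probe sets (-0.62), a call lost without EG103 untreated array 3 (-0.55) and under both scalings. Of all tested probe sets 6.28% were called higher and 16.4% lower in this comparison.

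Regulators of the group were read from a list of 10 genes. With aspirin 1 was called in EG110 and none in EG103, against 12% and 2.61% of all tested probe sets. *ROX1*, which encodes the haem-dependent repressor of hypoxic genes, averaged 11.76 ± 0.08 in untreated EG110 cells and 13.26 ± 0.02 with aspirin (n = 3 each), and rose 2.82-fold (standard error of the log2 difference 0.068, adjusted P = 1.87e-08 by limma). In EG103 it had a log2 difference of 0.40 (adjusted P = 0.00245 by limma), under the 1.5-fold threshold, and the effect in EG110 exceeded that in EG103 by 1.09 (adjusted P = 8.98e-06 by limma). *HAP1*, a haem-activated factor, had -0.31 in EG110 and 0.30 in EG103, and the difference between these was called (-0.61, adjusted P = 2.04e-04 by limma), though not without EG110 untreated array 1 (-0.57) or EG103 aspirin array 2 (-0.58). *UPC2* had 0.51 in EG110 (adjusted P = 5.15e-04 by limma, under 1.5-fold) and 0.16 in EG103, its paralogue *ECM22* 0.00 and 0.14, and *MOT3* 0.23 and -0.23.

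Averaged over media, 5 of the 10 regulators were called lower in EG110, against 16.4% of all tested probe sets. None was called higher, against 6.28%. The 5 were *SUT1*, a sterol uptake factor (-1.65), *UPC2* (-1.10), *CYC8* (-0.93) and *TUP1* (-0.73), which form a general corepressor, and *MOT3* (-0.59). Under the 1.5-fold threshold *ROX1* (-0.47), *SPT23* (-0.43) and *HAP1* (-0.37) were lower. *MGA2* was higher (0.44, adjusted P = 9.1e-07 by limma), also under the threshold. The calls of *TUP1* and *MOT3* were lost under both scalings, that of *MOT3* also without any of 6 single arrays, at -0.54 to -0.58, and *MGA2* was then called higher (0.63 and 0.65).

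Of 10 other genes induced by lack of oxygen, haem or sterol, 3 were called lower with aspirin in EG110, against 6.09% of all tested. None was called in EG103, against 2.61%. *ANB1*, the hypoxic form of translation factor eIF5A, fell by 1.29 (standard error 0.19, adjusted P = 1.35e-04 by limma), *COX5B*, the hypoxic subunit of cytochrome oxidase, fell by 0.74 (adjusted P = 1.46e-04 by limma) and *PDR11*, a sterol importer, fell by 0.64 (adjusted P = 6.41e-05 by limma), a call lost without replicate 3 of every group (-0.57). The effect in EG110 minus that in EG103 was called lower for *ANB1* (-1.64), *PDR11* (-0.89), *AUS1* (-0.85) and *COX5B* (-0.62), against 6.37% of all tested. The *COX5B* call was lost without EG110 aspirin array 2, EG110 untreated array 1, EG103 aspirin array 3 or EG103 untreated array 2, at -0.49 to -0.58. Under the 1.5-fold threshold *FET4* (-0.56, adjusted P = 3.57e-04 by limma), *AUS1* (-0.45, adjusted P = 0.00177 by limma) and *HMG2* (-0.29, adjusted P = 0.00424 by limma) also fell with aspirin in EG110. *FET4* was called there under quantile normalization (-0.62) and without EG110 untreated array 2 (-0.67). *AAC3*, a hypoxic ADP/ATP carrier, had 0.20 and 0.14 in EG110 and EG103, and *HEM13*, of haem synthesis, 0.15 and 0.24. Averaged over media, 7 of the 10 were called lower in EG110, against 16.4% of all tested, *ANB1* (-1.42), *AAC3* (-1.30) and *HEM13* (-1.22) the most. Under quantile normalization and median centring 6 were called lower, against 507 and 455 of all 5716 tested. *OLE1* (0.54, adjusted P = 1.47e-05 by limma) and *CYC7* (0.28, adjusted P = 0.0384 by limma) were higher in EG110 as deposited, both under the 1.5-fold threshold. After median centring *OLE1* was called higher (0.75).

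**Figure D4:**
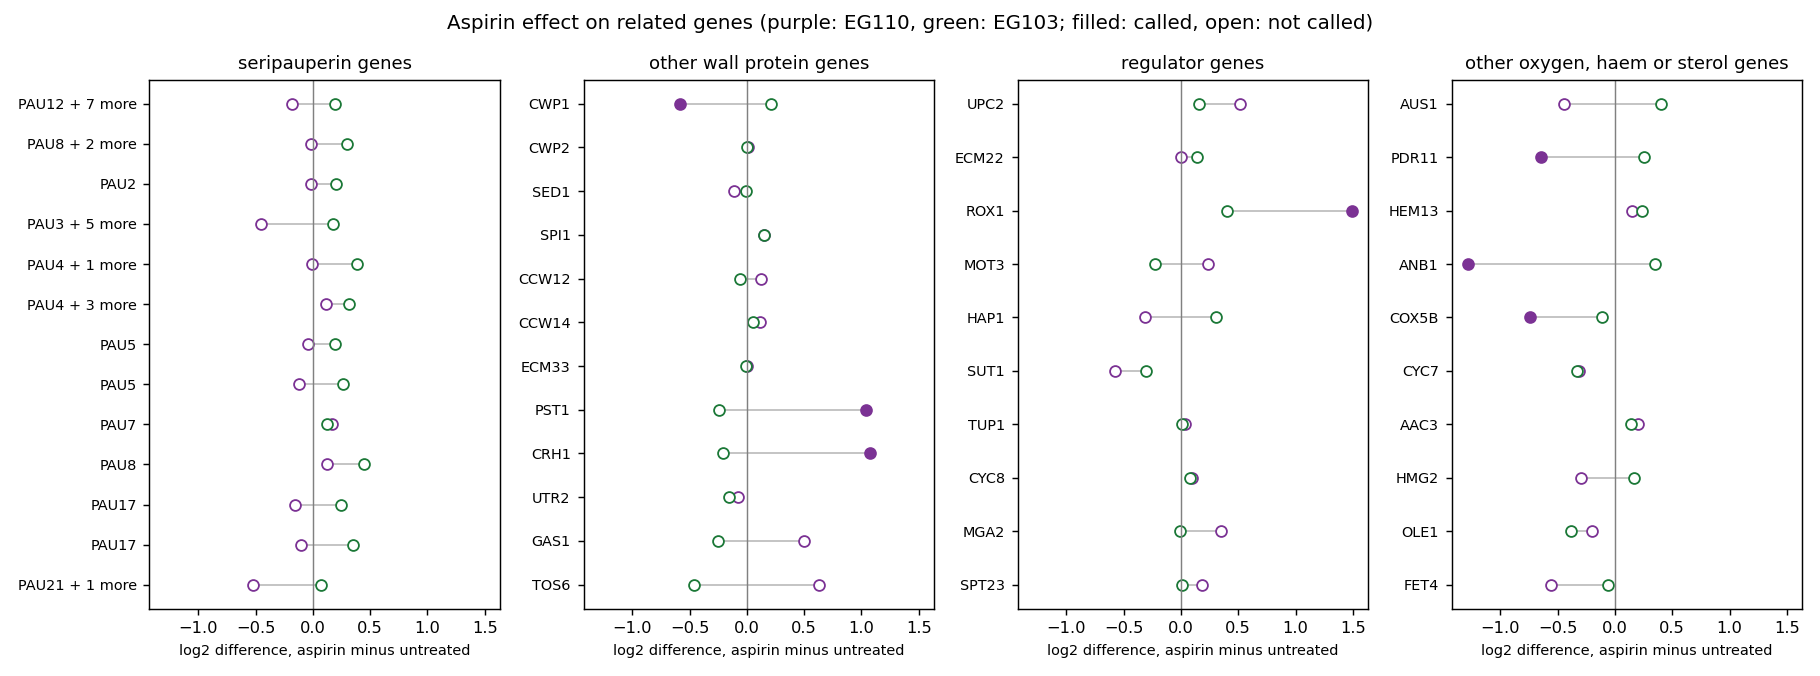
Log2 difference of aspirin-treated minus untreated cells in EG110 (purple) and EG103 (green) for the probe sets of the 4 related lists, filled where called. Filled points are found only in EG110, for *ROX1*, *PST1* and *CRH1* on the high side and for *ANB1*, *COX5B*, *PDR11* and *CWP1* on the low side.

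Over the 12 arrays, the genes whose levels most resembled the mean of the 10 standardized TIR and DAN probe sets were *SPS4* (r = 0.93), *ENO2*, an enolase gene (r = 0.91), *YIL014C-A* (r = 0.89), *DAP1*, a haem-binding protein of sterol synthesis (r = 0.89), and *EFB1*, a translation elongation factor (r = 0.87). For single genes the closest were *IDI1*, of isoprenoid synthesis, to *TIP1* (r = 0.98), *PMA2*, a minor plasma membrane proton pump, to *TIR1* (r = 0.97), *LIP1*, a ceramide synthase subunit, to *TIR3* (r = 0.97) and *SET4* to *TIR4* (r = 0.93). *MRC1*, of the replication checkpoint, was closest to *TIR2* (r = 0.96), *KSH1* to *DAN1* (r = 0.92), *PRR2* to *DAN4* (r = 0.97) and *YJR005C-A* to *DAN3* (r = 0.99). *PMA2* was among the 12 probe sets called lower in EG110 and higher in EG103, with log2 differences of -1.98 and 0.70. *IDI1*, in contrast, had -0.16 and 0.21, so that a high r did not stand for an effect of like size.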

How the data were processed

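The data were 12 Affymetrix GeneChip Yeast Genome 2.0 arrays, 3 for each strain and medium. The authors summarized the arrays to log2 values in AltAnalyze by robust multi-array averaging (RMA), and deposited them as a single table. Columns with fold changes and P-values from comparisons of the authors' own, aspirin-treated against untreated cells, are also in it and were not used. Whether the strains were normalized together is not given in the sources used here. No depth applies to arrays, and their number limits the precision.

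Values were used as deposited. Groups and replicate numbers came from the sample labels. The 5716 probe sets with an *S. cerevisiae* gene were fitted with limma 3.58.1 in R 4.3.3 on all 4 groups (8 residual degrees of freedom), 4999 probe sets without such a gene and 213 controls were left out, and 140 tested probe sets list several genes. Benjamini-Hochberg adjustment was applied within each contrast, with calls at an adjusted P below 0.05 and at least 1.5-fold. The fit was tested on simulated data. Tables and figures were made with Python 3.11.15, pandas 2.3.3 and matplotlib 3.10.9. RefSeq names served for synonyms and gene order only.

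The TIR and DAN genes and the lists were chosen with earlier results of these data known. Named besides them were, per list, up to 6 called genes with the largest differences, 5 regulators and *CWP1* and *CWP2* whatever their values, and the genes of highest Pearson r. *TRP1* lies on a control probe set and was not tested. Deviations from group means correlated at 0.229, 0.142 and 0.343 between EG110 arrays of the same replicate number. Pairs of EG110 arrays of unlike number, 1 with aspirin and 1 without, correlated at -0.387 to 0.221. The labels name no pairs, so the main fit had no term for the replicate number, which was tried only as an alternative. The alternatives tried were other scalings, filters, variance models and thresholds, an ordinary unpaired t-test, a replicate block, the compared arrays alone, and each array or replicate number left out.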

Additional observations from a re-analysis of the deposited data

Results flagged for a closer look

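For 3 genes every EG110 array with aspirin lay below all untreated EG110 arrays while every EG103 array with aspirin lay above all untreated EG103 arrays. The effect in EG110 minus that in EG103 was -2.38 for *TIP1*, -2.31 for *TIR1* and -1.79 for *TIR3* on the log2 scale. All 3 passed the thresholds for a call in this contrast, but the genes were chosen for this pattern, so the calls are a description and no independent test of it was made. Arrays separated in both strains in these directions for 198 of the tested probe sets, or 3.46%, and in the reverse directions for 185, or 3.24%.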

How the results depend on the processing

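With a fold change of at least 2, the calls among the 10 probe sets were 2 instead of 4 for aspirin in EG110, 1 instead of 5 in EG103 and 1 instead of 3 between the strains. With no fold threshold they were 4 in EG110 (52.3% of all tested probe sets), 6 in EG103 (20.6%), 8 instead of 4 for the difference of the aspirin effects (33.1%) and 8 instead of 3 between the strains (79.4%). A filter that removed the dimmest 25% of the tested probe sets, 3 of the 10 among them, gave 3 calls in EG103, and the t-test of the methods with Benjamini-Hochberg adjustment gave 1 there, 3 in EG110, where *TIP1* was lost, and 2 between the strains, where *TIR3* was lost. Quantile normalization gave 4 in EG103, where *TIR4* was lost. Leaving out arrays or replicate numbers gave 3 to 4 calls in EG110, 2 to 5 in EG103, 4 to 5 for the difference of the effects and 2 to 4 between the strains. With the replicate number as a block the counts were 4, 5, 4 and 3, and the block changed no count of calls among the 10 probe sets. Calls over all tested probe sets, 685 in EG110 and 149 in EG103 in the main fit, also fell in both strains at 2-fold and with the t-test. In EG103 they fell with the filter, which tested fewer probe sets, and changed little with quantile normalization. Leaving out replicate 1 or 2 of every group lowered them in EG103, and leaving out replicate 3 raised them. Lower counts in these settings were thus not limited to the 10 probe sets, and nothing about the TIR and DAN genes is read from them. In EG103 arrays of the same replicate number correlated at 0.0166, 0.485 and 0.450, and those of unlike number at -0.492 to 0.182. No pairing entered the main fit of either strain. No log2 difference that had been called changed its sign. The t-test was not run for the difference of the effects, and the compared arrays alone give no separate fit for the contrasts that use all 12.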
